A study of Homo sapiens with 12 samples.

Results

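The genes described here are 45 human genes of the ATF4 amino acid response: its transcription factors and stress effectors, enzymes that make amino acids, amino acid transporters, the tRNA exportin XPOT and 19 cytosolic aminoacyl-tRNA synthetases. They were chosen by symbol from a list made with earlier results of these data known. Each of the 45 symbols had a row among the 22545 genes of the deposited count table. RNA came from HaCaT, a spontaneously immortalised line of human skin keratinocytes, and was sequenced in 4 groups of 3 libraries. The groups were cells given M5 with lefamulin, cells given M5 with retapamulin, cells given M5 alone, and untreated cells. All were labelled wild type. M5 is in common use for a mix of psoriasis-related cytokines, but the labels give neither its composition nor any dose, time or solvent. Lefamulin and retapamulin are pleuromutilin antibiotics, used against bacteria, with a common tricyclic core and different side chains. The title sets these compounds against psoriasis, and the comparisons ask what M5 changed and what each compound changed on top of it.

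ATF4 is a transcription factor of the integrated stress response. When a stress kinase phosphorylates the translation factor eIF2, most protein synthesis slows while the ATF4 mRNA is translated more, and ATF4 then induces genes for amino acid synthesis, amino acid uptake and tRNA charging. Its partner and target DDIT3 (CHOP), the kinase inhibitor TRIB3 and the phosphatase subunit PPP1R15A (GADD34), which reverses eIF2 phosphorylation, shape how long the response lasts. Mitochondrial stress, amino acid shortage and unfolded proteins are among the known triggers. ATF4 with a C/EBP partner binds composite sites in the promoters of many of these genes, and a common core of such sites reads TGATGCAA.

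The promoter windows of the genes were read for that core because the genes are grouped by their link to ATF4. RefSeq windows of GRCh38.p14, which run 250 bases before to 50 after a start of a gene, matched 37 of the 45 genes. A gene could have more than 1 window, and the 37 genes had 55. The motif TGATGNAA, with N any base, was searched on both strands. It stood in at least 1 window of 12 of the 37 genes, and of 4.457% of the 27305 genes with a window. Those 27305 genes had 35116 windows, of which 3.617% held it. Genes with more windows had more bases searched, and the shares are not adjusted for that. The stricter TGATGCAA stood in 8 of the 37, and in 1.08% of all genes with a window. The strict motif is contained in the wider one, so the 8 are among the 12. The stretches below run 5′ to 3′ on each gene's own strand, with the matched bases in capitals, which read as the reverse complement where the match lies on the opposite strand.
CHAC1, chr15:40953251-40953280, plus strand, first matched base at -209: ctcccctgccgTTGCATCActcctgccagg
ASNS, chr7:97872458-97872487, minus strand, first matched base at -68: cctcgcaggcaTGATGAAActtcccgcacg
SLC1A5, chr19:46784893-46784922, minus strand, first matched base at -97: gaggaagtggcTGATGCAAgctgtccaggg
SLC7A1, chr13:29595663-29595692, minus strand, first matched base at 8: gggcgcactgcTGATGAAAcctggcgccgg
SLC3A2, chr11:62881725-62881748, plus strand, first matched base at 38: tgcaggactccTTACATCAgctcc
AARS1, chr16:70289675-70289704, minus strand, first matched base at -187: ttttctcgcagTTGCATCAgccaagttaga
CARS1, chr11:3057407-3057436, minus strand, first matched base at -2: cggggcggcggTTGCATCAgattctaggaa
GARS1, chr7:30594834-30594863, plus strand, first matched base at -33: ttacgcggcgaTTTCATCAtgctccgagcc
IARS1, chr9:92293692-92293721, minus strand, first matched base at -13: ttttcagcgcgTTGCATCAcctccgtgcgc
MARS1, chr12:57488053-57488082, plus strand, first matched base at -4: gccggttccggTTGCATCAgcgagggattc
NARS1, chr18:57621804-57621833, minus strand, first matched base at 15: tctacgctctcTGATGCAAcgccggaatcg
TARS1, chr5:33440956-33440985, plus strand, first matched base at 3: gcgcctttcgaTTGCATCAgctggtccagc

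Positions count from the start that the window surrounds, negative before it, and a gene may have other starts. The 250 bases before the start are shown whole for CHAC1, a glutathione-degrading enzyme, and for ASNS, asparagine synthetase, since both rose with each compound.
CHAC1, chr15:40953221-40953470, plus strand: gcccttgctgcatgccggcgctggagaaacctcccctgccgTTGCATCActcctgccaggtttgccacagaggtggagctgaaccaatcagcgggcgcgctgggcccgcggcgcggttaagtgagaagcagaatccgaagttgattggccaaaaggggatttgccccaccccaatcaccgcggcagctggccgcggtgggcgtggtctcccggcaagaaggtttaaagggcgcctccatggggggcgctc
ASNS, chr7:97872409-97872658, minus strand: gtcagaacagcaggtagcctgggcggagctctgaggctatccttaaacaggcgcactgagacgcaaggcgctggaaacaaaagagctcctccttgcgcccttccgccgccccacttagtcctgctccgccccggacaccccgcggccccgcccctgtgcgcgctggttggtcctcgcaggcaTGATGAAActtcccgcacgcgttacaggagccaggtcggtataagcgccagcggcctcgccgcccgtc

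A match is a description of these letters and does not show binding. Of the 12 genes with a match, 8 rose and 3 fell with lefamulin added to M5, and 9 rose and 1 fell with retapamulin added to M5. Over all genes tested 33.6% rose and 34.3% fell with lefamulin, and 34.1% rose and 38% fell with retapamulin, by edgeR's test at an adjusted p under 0.05. Of the 24 tested genes whose windows held no match, 15 rose and 7 fell with lefamulin, and 16 rose and 6 fell with retapamulin. Their median log2 fold changes were 0.17 with a match and 0.30 without one for lefamulin, and 0.37 with a match and 0.51 without one for retapamulin.

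The 12 libraries held 35110519 to 37520999 counts each. Untreated replicate 2 differed more from the other untreated libraries, with a chi-square per degree of freedom of 8.84 against replicate 1 and 7.74 against replicate 3, than any other replicate pair did (2.78 to 5.18). Changes were tested with edgeR's quasi-likelihood test over 14207 genes, and a gene is said to rise or fall where its Benjamini-Hochberg adjusted p was under 0.05. Levels are CPM, counts relative to library size, with the size scaled by edgeR's TMM composition factors. The libraries were bulk RNA, so fewer cells of a type and less RNA per cell cannot be told apart. Nothing in the labels says that the 3 libraries of a group came from separate cultures, so the p-values measure the spread between these libraries, which may be technical. The spread was small, with a common biological coefficient of variation of 0.0449, and changes well under 2-fold passed the test. The 10 keratinocyte markers summed to 4285 to 4377 CPM with lefamulin and M5, 4706 to 4758 with retapamulin and M5, 3236 to 3354 with M5 and 3896 to 3949 in untreated cells, and the part of this shift in the results was not tested. Of these markers 6 rose and 4 fell with each compound over M5, with medians of 0.44 with lefamulin and 0.57 with retapamulin. SFN had the largest rise, by 1.26 with lefamulin and 1.48 with retapamulin, and KRT14, a basal keratin, the largest fall. KRT14 was the lowest of them with the compounds, at 0.796 CPM with lefamulin and M5 and 0.730 CPM with retapamulin and M5, against 3.43 CPM with M5 and 8.52 CPM in untreated cells. Fibroblast markers summed to 15.4 to 17.0 CPM with lefamulin and M5 and 9.34 to 11.1 CPM with retapamulin and M5. Their sums were 5.61 to 6.89 CPM with M5 and 7.17 to 7.94 CPM in untreated cells. Leukocyte markers summed to 0.142 to 0.48 CPM with lefamulin and M5 and 0.059 to 0.117 CPM with retapamulin and M5. They summed to 1.45 to 1.79 CPM with M5 and 0.375 to 0.493 CPM in untreated cells. COL1A2, COL3A1, LUM, PTPRC, CD3E, LYZ and HLA-DRA were each at 0 in at least 1 whole group. COL1A1 rose with each compound over M5 but fell with M5 alone, where PDGFRA and CD14 rose. CD14 fell with each compound over M5. Endothelial markers, nearly all from CDH5, summed to 118 to 123 CPM with lefamulin and M5, 99.8 to 115 with retapamulin and M5, 117 to 122 with M5 and 14.6 to 16.7 in untreated cells. CDH5 rose by 2.95 with M5, and its change over M5 was -0.01 with lefamulin and -0.19 with retapamulin. VWF went the other way. It fell by 3.06 with M5 and rose over M5 by 5.35 with lefamulin and 5.28 with retapamulin. Of the 3 endothelial genes counted, 2 averaged under 1 CPM with M5 and in untreated cells. Melanocyte markers summed to 14.5 to 16.1 CPM with lefamulin and M5, 19.5 to 21.4 with retapamulin and M5, 9.89 to 12.6 with M5 and 25.4 to 27.3 in untreated cells. The part of these lists in the results was not tested.

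NUPR1, a stress-induced chromatin protein, and CBS, which makes cystathionine, did not pass the filter on low counts and were not tested, which left 43 genes. NUPR1 had 8 counts in all with lefamulin and M5, 3 with retapamulin and M5, 10 with M5 and 13 in untreated cells. CBS had 0 counts with lefamulin and M5, 3 with retapamulin and M5, 0 with M5 and 1 in untreated cells. A count of 0 over the 3 libraries allows up to 0.0281 CPM with lefamulin and M5 and 0.0270 CPM with M5, for counting error only. CBS is further uncertain because some genome assemblies carry a near-identical copy that can take its reads.

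Lefamulin added to M5 raised 24 of the 43 genes and lowered 13. Over all genes tested 67.9% passed the same test, 33.6% upward and 34.3% downward. Retapamulin added to M5 raised 27 and lowered 10, where 72.1% of all genes passed, 34.1% upward and 38% downward. M5 alone raised 24 and lowered 13 relative to untreated cells, where 55.2% of all genes passed, 28.3% upward and 26.9% downward. Without untreated replicate 2, M5 raised 23 and lowered 13. The median log2 fold change of the 43 genes was 0.17 with lefamulin, 0.27 with retapamulin and 0.12 with M5, against medians over all genes tested of -0.00 with lefamulin, -0.05 with retapamulin and -0.02 with M5. At least a 2-fold rise was met by 6 of the 43 genes with lefamulin and 8 with retapamulin, where the shares of all genes were 9.09% with lefamulin and 9.81% with retapamulin. At least a 2-fold fall was met by 1 of the 43, SLC7A5, with each compound, and by 0 with M5 alone, where 4.91% of all genes met it with lefamulin, 8.66% with retapamulin and 5.53% with M5. Without the composition factors, on library totals alone, the median of all genes moved to -0.05 with lefamulin, -0.19 with retapamulin and -0.14 with M5. The median of the 43 genes was then 0.12 with lefamulin, 0.13 with retapamulin and -0.00 with M5. The genes then rose and fell in numbers of 23 and 14 with lefamulin, 24 and 15 with retapamulin, and 15 and 17 with M5. On that scale the share of upward calls over all called genes was 37.4% with retapamulin and 31.5% with M5, against 47.3% with retapamulin and 51.3% with M5 with the composition factors.

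**Figure D1:**
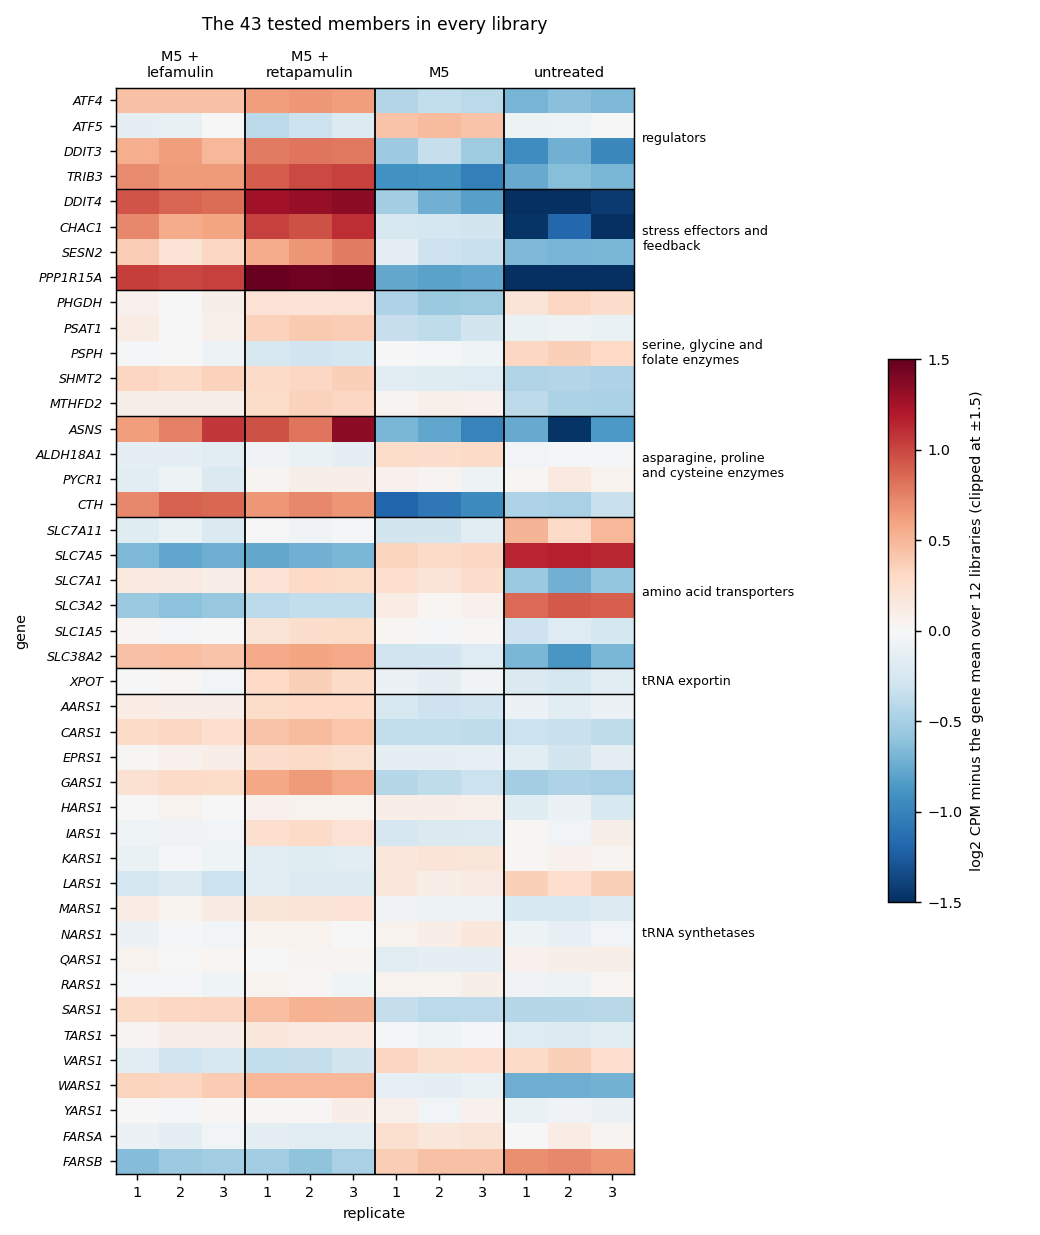
Level of each of the 43 tested genes in each library, as log2 CPM minus the gene's mean over the 12 libraries (colour, clipped at 1.5 either way); columns are the 3 replicates of each group and rows are ordered by role. The stress effectors and the regulators ATF4, DDIT3 and TRIB3 are highest with retapamulin and M5, next with lefamulin and M5, while SLC7A5, SLC3A2 and FARSB are highest in untreated cells.

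ATF4 itself was higher with both compounds. It had 485, 486 and 487 CPM in the lefamulin and M5 libraries, 555, 563 and 553 CPM in the retapamulin and M5 libraries, 265, 279 and 272 CPM in the M5 libraries, and 221, 233 and 226 CPM in untreated cells. No 2 of these groups overlapped, and their order was retapamulin, lefamulin, M5 and untreated. The rise over M5 was 1.79-fold with lefamulin (log2 0.84, SE 0.03, edgeR adjusted p = 8.38e-18) and 2.05-fold with retapamulin (log2 1.04, SE 0.03, adjusted p = 8.35e-20). M5 alone raised it less (log2 0.26, SE 0.03, adjusted p = 6.61e-08). ATF4 is known to be controlled mainly through translation, which these mRNA counts do not measure.

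DDIT3, the pro-apoptotic bZIP partner of ATF4, kept the same order of groups. It had 47.4, 50.2 and 45.9 CPM with lefamulin and M5, 55.8, 56.7 and 56.3 CPM with retapamulin and M5, 22.2, 25.5 and 22.5 CPM with M5, and 17.0, 19.7 and 16.6 CPM in untreated cells. The 4 groups did not overlap. The log2 fold change over M5 was 1.03 with lefamulin (SE 0.06, edgeR adjusted p = 1.92e-13) and 1.27 with retapamulin (SE 0.06, adjusted p = 2.2e-15). DDIT3 overlaps MARS1 in RefSeq, and some of its reads could belong to that synthetase gene, since the sources used here do not say how strand was used in counting.

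TRIB3, a pseudokinase induced by ATF4 and DDIT3, was the regulator with the largest rise. It had 163, 156 and 155 CPM with lefamulin and M5, 188, 198 and 202 CPM with retapamulin and M5, 53.2, 53.6 and 49.0 CPM with M5, and 58.8, 64.3 and 61.9 CPM in untreated cells. Every compound library lay above every library of M5 and of untreated cells. The fold change over M5 was 3.04 with lefamulin (log2 1.60, SE 0.04, edgeR adjusted p = 5.85e-20) and 3.78 with retapamulin (log2 1.92, SE 0.04, adjusted p = 1.04e-21). With M5 alone TRIB3 fell by 0.25 on the log2 scale (SE 0.05, adjusted p = 6.13e-05), the one regulator that M5 lowered.

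ATF5, a related bZIP factor linked to the mitochondrial stress response, went the other way. It had 40.9, 41.6 and 44.8 CPM with lefamulin and M5, 34.0, 36.1 and 39.2 CPM with retapamulin and M5, 60.3, 62.5 and 60.4 CPM with M5, and 42.8, 42.9 and 44.9 CPM in untreated cells. M5 libraries were the highest, and lefamulin libraries overlapped those of untreated cells. ATF5 rose with M5 (log2 0.49, SE 0.05, edgeR adjusted p = 8.37e-09). It fell by 0.53 (SE 0.05, adjusted p = 1.48e-09) when lefamulin was added and by 0.75 (SE 0.05, adjusted p = 2.27e-12) when retapamulin was added. ATF5 overlaps NUP62 and IL4I1 in RefSeq. Those rows also had their most counts in M5 libraries, 18051 for NUP62 and 670 for IL4I1 over the 3 libraries, and reads shared with ATF5 cannot be told apart without strand.

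All 4 stress effectors and feedback genes rose in each of these comparisons. PPP1R15A, the phosphatase subunit that ends eIF2 phosphorylation, had the largest rise of the 43 genes with retapamulin. It had 379, 369 and 376 CPM with lefamulin and M5, 517, 508 and 511 CPM with retapamulin and M5, 109, 106 and 107 CPM with M5, and 55.1, 58.8 and 56.9 CPM in untreated cells. These groups were far apart relative to their spread. The fold change over M5 was 3.49 with lefamulin (log2 1.80, SE 0.03, edgeR adjusted p = 6.77e-24) and 4.77 with retapamulin (log2 2.25, SE 0.03, adjusted p = 6.53e-26). M5 alone gave 1.89-fold over untreated cells (log2 0.92, SE 0.03, adjusted p = 2.39e-17).

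DDIT4 (REDD1), an inhibitor of mTORC1 signalling, followed the same pattern. It had 285, 273 and 264 CPM with lefamulin and M5, 356, 368 and 377 CPM with retapamulin and M5, 104, 89.9 and 84.4 CPM with M5, and 52.2, 49.5 and 54.6 CPM in untreated cells. The 4 groups did not overlap. The fold change over M5 was 2.95 with lefamulin (log2 1.56, SE 0.05, edgeR adjusted p = 4.21e-18) and 3.95 with retapamulin (log2 1.98, SE 0.05, adjusted p = 2.55e-20). SESN2, a leucine sensor that also restrains mTORC1, had 30.7, 27.3 and 29.6 CPM with lefamulin and M5, 34.9, 37.5 and 40.4 CPM with retapamulin and M5, 21.4, 19.2 and 18.9 CPM with M5, and 14.9, 14.6 and 14.7 CPM in untreated cells. It rose 1.47-fold with lefamulin (log2 0.56, SE 0.07, adjusted p = 6.58e-08) and 1.90-fold with retapamulin (log2 0.92, SE 0.07, adjusted p = 4.84e-12), again without overlap of groups.

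CHAC1 stood at 18.8, 16.7 and 17.2 CPM with lefamulin and M5, 23.2, 22.1 and 24.7 CPM with retapamulin and M5, 9.70, 9.54 and 9.47 CPM with M5, and 4.11, 5.03 and 3.999 CPM in untreated cells. It was the one gene of the 43 that M5 alone raised at least 2-fold, by 2.18-fold (log2 1.13, SE 0.10, edgeR adjusted p = 4.55e-10), where 5.07% of all genes met that rule. The compounds raised it further over M5, by 1.84-fold with lefamulin (log2 0.88, SE 0.09, adjusted p = 2.33e-09) and 2.44-fold with retapamulin (log2 1.28, SE 0.08, adjusted p = 1.18e-12). The summed level of the 4 stress genes was 696 ± 15.7 CPM with lefamulin and M5, 940 ± 11.8 CPM with retapamulin and M5, 230 ± 12.7 CPM with M5 and 128 ± 1.97 CPM in untreated cells (SD, n = 3 each).

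**Figure D2:**
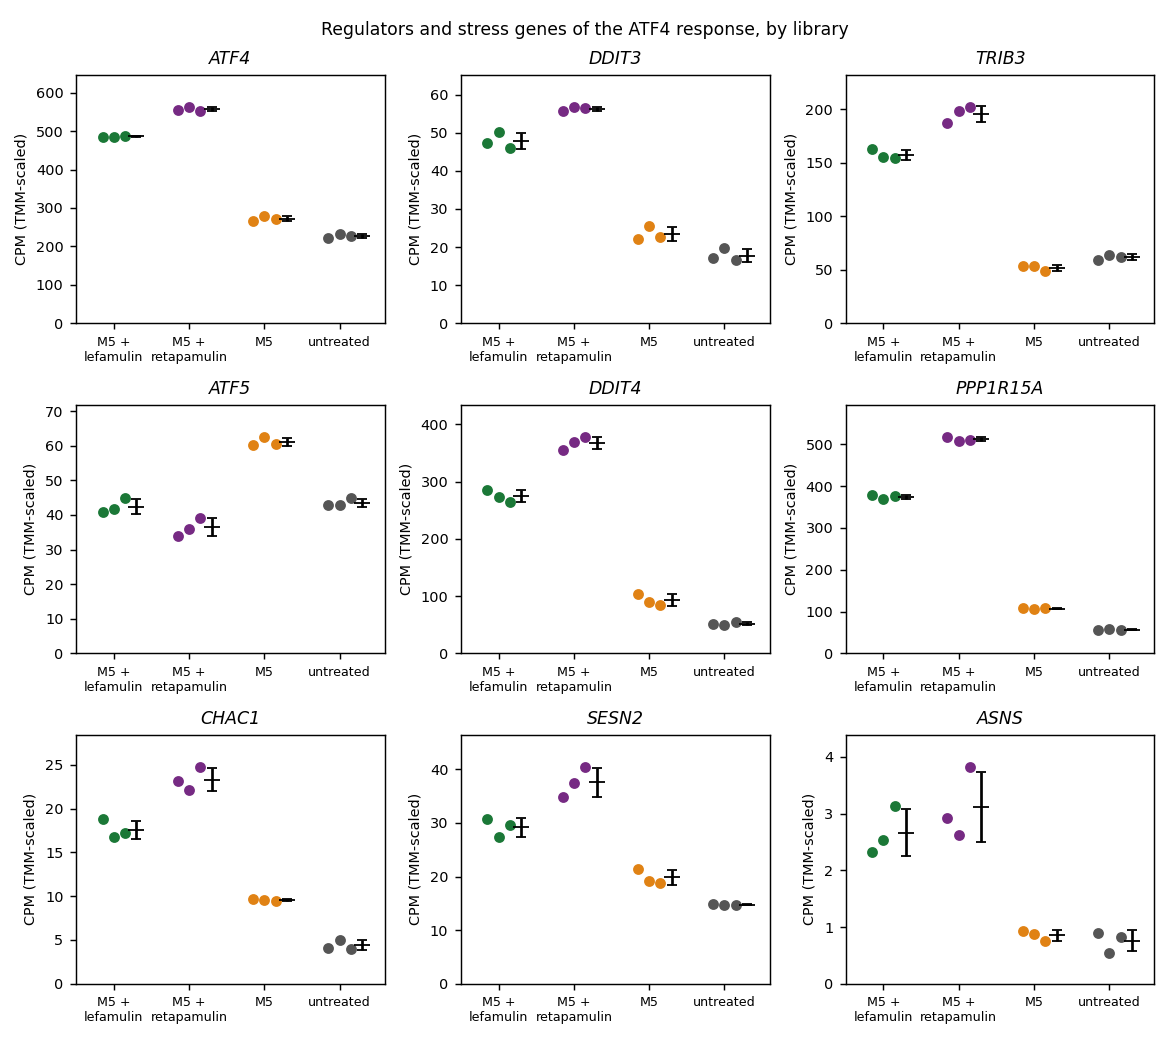
CPM of 9 genes in every library, from left to right M5 with lefamulin, M5 with retapamulin, M5 and untreated; each point is a library, the bar beside it the mean with its SD (n = 3), and each axis starts at 0. ATF5 is the one panel in which M5 is highest; PPP1R15A reaches 517 CPM with retapamulin and stays at or below 109 CPM in all M5 and untreated libraries.

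The serine pathway makes serine from an intermediate of glycolysis, and PHGDH, PSAT1 and PSPH are its successive enzymes. PSAT1 had 161, 149 and 158 CPM with lefamulin and M5, 190, 197 and 193 CPM with retapamulin and M5, 118, 115 and 123 CPM with M5, and 139, 142 and 140 CPM in untreated cells. M5 libraries were the lowest of the 4 groups. PSAT1 rose over M5 by 1.32-fold with lefamulin (log2 0.40, SE 0.04, edgeR adjusted p = 9.81e-10) and 1.63-fold with retapamulin (log2 0.70, SE 0.04, adjusted p = 1.4e-14), and fell by 0.24 (SE 0.04, adjusted p = 5.13e-06) with M5 alone. Against untreated cells its rise with lefamulin and M5 was 0.15 (SE 0.04, adjusted p = 0.000577), and on library totals alone it changed sign, to -0.01.

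PHGDH, the first enzyme of the pathway, had 133, 126 and 134 CPM with lefamulin and M5, 148, 146 and 148 CPM with retapamulin and M5, 92.1, 86.0 and 87.6 CPM with M5, and 144, 158 and 152 CPM in untreated cells. M5 lowered it to 0.585 of the untreated level (log2 -0.77, SE 0.04, edgeR adjusted p = 1.79e-14). The compounds raised it over M5 by 1.48-fold with lefamulin (log2 0.57, SE 0.04, adjusted p = 4.91e-12) and 1.66-fold with retapamulin (log2 0.73, SE 0.04, adjusted p = 2.3e-14), and retapamulin libraries then overlapped untreated ones. PSPH, the last enzyme, did not follow. It averaged 55.0 ± 1.31 CPM with lefamulin and M5, 46.9 ± 0.738 CPM with retapamulin and M5, 55.1 ± 1.26 CPM with M5 and 70.3 ± 1.63 CPM in untreated cells (SD, n = 3 each), and it fell by 0.23 with retapamulin relative to M5 (SE 0.04, adjusted p = 2.09e-05).

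SHMT2, which moves a carbon unit from serine to folate in mitochondria, rose to 352, 344 and 356 CPM with lefamulin and M5 and 343, 348 and 358 CPM with retapamulin and M5, against 249, 247 and 246 CPM with M5 and 205, 207 and 204 CPM in untreated cells. Both compounds gave a log2 fold change of 0.50 over M5 (SE 0.03 each, edgeR adjusted p = 1.92e-13 with lefamulin and 1.57e-13 with retapamulin), and their libraries overlapped. MTHFD2, the next mitochondrial folate enzyme, had 181, 181 and 181 CPM with lefamulin and M5, 205, 216 and 210 CPM with retapamulin and M5, 175, 179 and 178 CPM with M5, and 129, 122 and 121 CPM in untreated cells. Its larger step was the one with M5 (log2 0.52, SE 0.03, adjusted p = 3.44e-12), and retapamulin raised it by a further 0.25 (SE 0.03, adjusted p = 4.96e-07).

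Of the asparagine, proline and cysteine enzymes, CTH and ASNS rose with both compounds and ALDH18A1 fell. CTH, cystathionine gamma-lyase, which makes cysteine, had 16.9, 19.1 and 18.6 CPM with lefamulin and M5, 16.2, 17.0 and 16.3 CPM with retapamulin and M5, 4.52, 4.89 and 5.31 CPM with M5, and 7.49, 7.34 and 8.15 CPM in untreated cells. All compound libraries lay above untreated ones, and these above M5. The fold change over M5 was 3.71 with lefamulin (log2 1.89, SE 0.09, edgeR adjusted p = 3.44e-15), the largest of the 43 genes for that compound, and 3.36 with retapamulin (log2 1.75, SE 0.09, adjusted p = 1.32e-14). With M5 alone CTH fell by 0.64 (SE 0.10, adjusted p = 3.78e-06).

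The ASNS row held few counts. They were 84, 90 and 110 in the lefamulin and M5 libraries and 97, 89 and 131 in the retapamulin and M5 libraries. The M5 libraries had 35, 32 and 28, and untreated cells had 35, 21 and 33. These counts are 2.32, 2.54 and 3.13 CPM with lefamulin and M5, 2.92, 2.63 and 3.82 CPM with retapamulin and M5, 0.936, 0.879 and 0.751 CPM with M5, and 0.894, 0.545 and 0.825 CPM in untreated cells. The fold change over M5 was 3.11 with lefamulin (log2 1.64, SE 0.24, edgeR adjusted p = 2.29e-06) and 3.64 with retapamulin (log2 1.86, SE 0.24, adjusted p = 2.42e-07), while M5 and untreated libraries overlapped. ASNS overlaps the noncoding gene CZ1P-ASNS, whose own row held 154 to 237 counts a library, more than ASNS in every library. The sources used here do not say how reads on both genes were counted, and reads left out would be in neither row. The level of ASNS mRNA is therefore uncertain. With both rows summed, an alternative chosen after seeing the data, the log2 fold change was 0.35 with lefamulin (SE 0.13, adjusted p = 0.0185) and 0.39 with retapamulin (SE 0.13, adjusted p = 0.0084), so the size for the locus depends on how its reads are assigned.

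The proline enzymes rose with neither compound. ALDH18A1, which starts proline synthesis from glutamate, had 155, 155 and 152 CPM with lefamulin and M5, 164, 160 and 156 CPM with retapamulin and M5, 206, 205 and 208 CPM with M5, and 166, 169 and 170 CPM in untreated cells. It rose with M5 (log2 0.30, SE 0.03, edgeR adjusted p = 2.14e-08) and fell with lefamulin by 0.43 (SE 0.03, adjusted p = 1.8e-11) and with retapamulin by 0.37 (SE 0.03, adjusted p = 2.07e-10). PYCR1, the last step of proline synthesis in mitochondria, averaged 40.5 ± 2.02 CPM with lefamulin and M5, 47.4 ± 1.06 CPM with retapamulin and M5, 45.4 ± 2.31 CPM with M5 and 47.3 ± 2.09 CPM in untreated cells (SD, n = 3 each). It fell with lefamulin by 0.17 (SE 0.05, adjusted p = 0.00552).

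Among the 6 amino acid transporters, the pair with the most mRNA per length fell with the compounds while SLC38A2 rose. SLC7A5 (LAT1) imports leucine and other large amino acids, and SLC3A2 (CD98) is the heavy chain that carries it to the membrane. SLC7A5 had 1317, 1222 and 1261 CPM with lefamulin and M5, 1233, 1278 and 1305 CPM with retapamulin and M5, 2659, 2565 and 2604 CPM with M5, and 4643, 4701 and 4584 CPM in untreated cells. M5 lowered it to 0.562 of the untreated level (log2 -0.83, SE 0.03, edgeR adjusted p = 7.43e-18). It fell further to 0.485 of the M5 level with lefamulin (log2 -1.04, SE 0.03, adjusted p = 7.5e-20) and 0.487 with retapamulin (log2 -1.04, SE 0.03, adjusted p = 5.4e-20), and the libraries of the 2 compounds overlapped.

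SLC3A2 had 552, 529 and 543 CPM with lefamulin and M5, 609, 628 and 627 CPM with retapamulin and M5, 872, 828 and 846 CPM with M5, and 1456, 1530 and 1501 CPM in untreated cells. The 4 groups did not overlap. M5 lowered it by 0.82 (SE 0.03, edgeR adjusted p = 1.34e-17). Relative to M5 it fell by 0.65 with lefamulin (SE 0.03, adjusted p = 1.13e-15) and by 0.45 with retapamulin (SE 0.03, adjusted p = 1.01e-12). A window of SLC3A2 held TGATGTAA, and SLC7A5 had no match.

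SLC38A2 (SNAT2), a sodium-coupled importer of small neutral amino acids known to be induced by amino acid shortage, had 1021, 1034 and 1013 CPM with lefamulin and M5, 1116, 1141 and 1117 CPM with retapamulin and M5, 613, 619 and 658 CPM with M5, and 469, 414 and 469 CPM in untreated cells. It rose 1.62-fold over M5 with lefamulin (log2 0.70, SE 0.04, edgeR adjusted p = 3.61e-14), 1.79-fold with retapamulin (log2 0.84, SE 0.04, adjusted p = 7.68e-16), and 1.40-fold with M5 over untreated cells (log2 0.48, SE 0.04, adjusted p = 9.08e-11). The 4 groups did not overlap. SLC38A2 and SLC7A5 thus changed in opposite directions in each of the 3 comparisons.

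SLC7A1, an importer of arginine and lysine, changed mostly with M5. It had 373, 368 and 361 CPM with lefamulin and M5, 393, 414 and 408 CPM with retapamulin and M5, 402, 388 and 404 CPM with M5, and 230, 205 and 226 CPM in untreated cells. M5 raised it by 0.85 (SE 0.04, edgeR adjusted p = 6.51e-16). SLC1A5 (ASCT2), which takes up glutamine, averaged 413 ± 6.47 CPM with lefamulin and M5, 488 ± 15.3 CPM with retapamulin and M5, 416 ± 7.36 CPM with M5 and 345 ± 14.5 CPM in untreated cells (SD, n = 3 each). SLC7A11 (xCT), the cystine importer, averaged 40.5 ± 1.81 CPM with lefamulin and M5, 44.6 ± 0.978 CPM with retapamulin and M5, 38.5 ± 1.73 CPM with M5 and 61.4 ± 5.27 CPM in untreated cells (SD, n = 3 each). The rises of SLC1A5 and SLC7A11 with retapamulin over M5 were 0.23 (SE 0.03, adjusted p = 1.12e-06) and 0.21 (SE 0.06, adjusted p = 0.00173), and that of SLC7A11 was 0.08 (adjusted p = 0.221) on library totals alone.

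The summed level of the 6 transporters was 3652 ± 63.7 CPM with lefamulin and M5, 3955 ± 76.9 CPM with retapamulin and M5, 4940 ± 84.8 CPM with M5 and 7217 ± 44.2 CPM in untreated cells (SD, n = 3 each). SLC7A5 made up the largest share of each sum. XPOT, which exports tRNA from the nucleus, had 346, 352 and 336 CPM with lefamulin and M5, 425, 445 and 422 CPM with retapamulin and M5, 326, 313 and 333 CPM with M5, and 298, 288 and 311 CPM in untreated cells. Retapamulin raised it by 0.41 (SE 0.03, edgeR adjusted p = 1.32e-10) over M5. Its change with lefamulin was 0.09 (SE 0.03, adjusted p = 0.0279). That call was lost without M5 replicate 1 (adjusted p = 0.0534), M5 replicate 2 (0.165), lefamulin replicate 1 (0.0837) or lefamulin replicate 2 (0.114). The change of XPOT with M5 alone, 0.12 (adjusted p = 0.0059), was -0.00 on library totals alone.

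**Figure D3:**
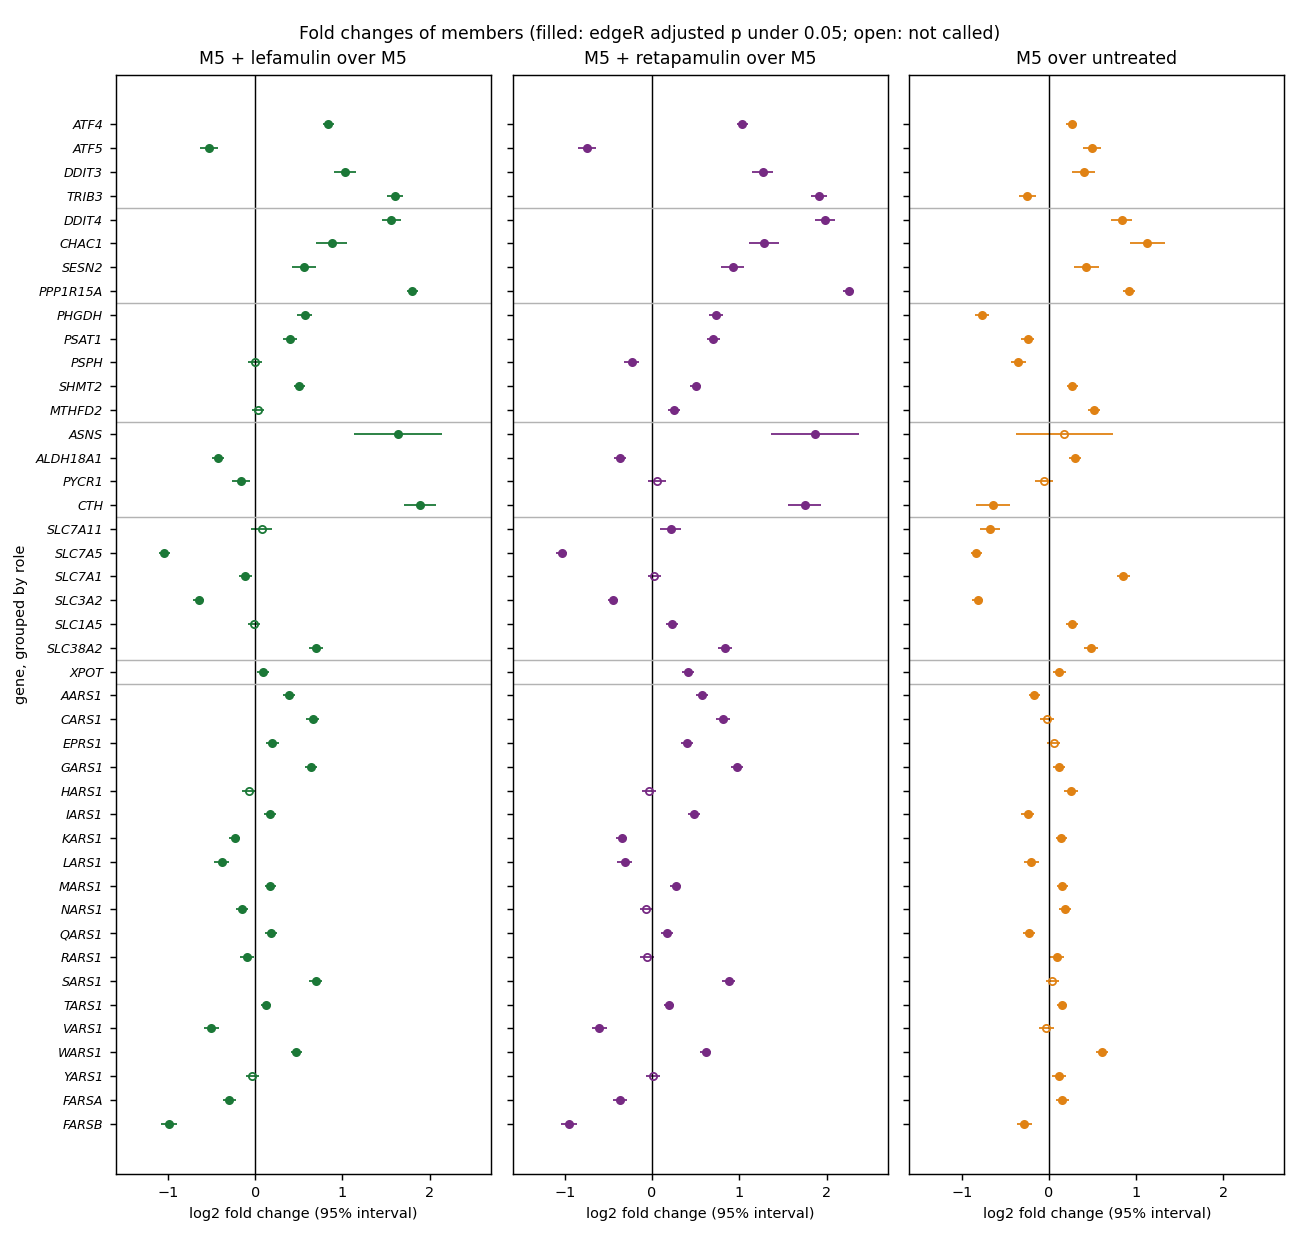
Log2 fold change of each of the 43 tested genes with its 95% interval, for lefamulin with M5 over M5, retapamulin with M5 over M5, and M5 over untreated cells; filled points passed edgeR's test at an adjusted p under 0.05, and the rows are ordered by role. TRIB3, PHGDH, PSAT1 and CTH lie right of 0 for both compounds and left of 0 for M5, ATF5 and ALDH18A1 lie the other way round, and SLC7A5, SLC3A2 and FARSB lie left of 0 in all 3 panels.

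Aminoacyl-tRNA synthetases join each amino acid to its tRNA. The 19 cytosolic synthetase genes, among them both subunits of the phenylalanine enzyme (FARSA and FARSB), did not move as 1 block. With lefamulin 10 rose and 7 fell, with retapamulin 10 rose and 5 fell, and with M5 alone 10 rose and 5 fell. That is 17 of 19 called with lefamulin and 15 of 19 with retapamulin and with M5, where 67.9% of all genes were called with lefamulin, 72.1% with retapamulin and 55.2% with M5. On library totals alone 8 rose and 9 fell with retapamulin, and 2 rose and 8 fell with M5. Their summed level was 3752 ± 35.7 CPM with lefamulin and M5, 4078 ± 22.7 CPM with retapamulin and M5, 3487 ± 29.8 CPM with M5 and 3358 ± 36.6 CPM in untreated cells (SD, n = 3 each).

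GARS1, SARS1 and CARS1, which charge glycine, serine and cysteine tRNAs, had the largest rises with the compounds. GARS1 had 283, 296 and 294 CPM with lefamulin and M5, 364, 377 and 359 CPM with retapamulin and M5, 180, 186 and 195 CPM with M5, and 169, 176 and 174 CPM in untreated cells. It rose 1.56-fold with lefamulin (log2 0.64, SE 0.03, edgeR adjusted p = 3.03e-14) and 1.96-fold with retapamulin (log2 0.97, SE 0.03, adjusted p = 4.94e-18), and compound libraries did not overlap with M5 or untreated ones. SARS1 had 140, 142 and 144 CPM with lefamulin and M5, 156, 165 and 163 CPM with retapamulin and M5, 89.6, 86.9 and 87.4 CPM with M5, and 85.5, 85.3 and 86.3 CPM in untreated cells. It rose by 0.69 with lefamulin (SE 0.04, adjusted p = 8.61e-15) and 0.88 with retapamulin (SE 0.03, adjusted p = 5.56e-17).

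CARS1 had 88.0, 89.6 and 86.2 CPM with lefamulin and M5, 97.3, 100 and 96.3 CPM with retapamulin and M5, 55.9, 55.8 and 55.6 CPM with M5, and 57.8, 57.3 and 55.3 CPM in untreated cells. Its M5 and untreated libraries overlapped, and the rise came with the compounds, by 0.66 with lefamulin (SE 0.04, edgeR adjusted p = 1.06e-13) and 0.81 with retapamulin (SE 0.04, adjusted p = 1.12e-15). WARS1, for tryptophan and known as an interferon-induced gene, rose at both steps. It had 248, 246 and 255 CPM with lefamulin and M5, 276, 277 and 276 CPM with retapamulin and M5, 179, 178 and 183 CPM with M5, and 118, 117 and 120 CPM in untreated cells. Its rise with M5 was 0.61 (SE 0.03, adjusted p = 2.38e-14), the largest of the synthetases there, and the compounds added 0.47 with lefamulin (SE 0.03, adjusted p = 1.5e-12) and 0.61 with retapamulin (SE 0.03, adjusted p = 5.26e-15).

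AARS1, for alanine, averaged 318 ± 1.13 CPM with lefamulin and M5, 361 ± 3.09 CPM with retapamulin and M5, 243 ± 5.999 CPM with M5 and 273 ± 8.51 CPM in untreated cells (SD, n = 3 each). It rose by 0.39 with lefamulin (SE 0.03, edgeR adjusted p = 6.82e-11) and 0.57 with retapamulin (SE 0.03, adjusted p = 2.8e-14). Smaller rises with both compounds were found for EPRS1 (glutamate and proline), IARS1 (isoleucine), MARS1 (methionine), QARS1 (glutamine) and TARS1 (threonine), between 0.12 and 0.20 with lefamulin and between 0.17 and 0.48 with retapamulin. On library totals alone QARS1 and TARS1 were no longer called with retapamulin, at 0.03 (adjusted p = 0.38) and 0.06 (adjusted p = 0.0586).

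FARSB, the beta subunit of the phenylalanine enzyme, fell most. It had 38.2, 41.2 and 42.1 CPM with lefamulin and M5, 41.8, 39.4 and 42.9 CPM with retapamulin and M5, 77.4, 81.6 and 81.9 CPM with M5, and 97.8, 99.4 and 95.6 CPM in untreated cells. It fell to 0.504 of the M5 level with lefamulin (log2 -0.99, SE 0.05, edgeR adjusted p = 1.2e-15) and 0.515 with retapamulin (log2 -0.96, SE 0.05, adjusted p = 1.75e-15). FARSA, the alpha subunit, fell less, by 0.30 with lefamulin (SE 0.04, adjusted p = 1.81e-07) and 0.37 with retapamulin (SE 0.04, adjusted p = 3.71e-09). Per length, FARSA averaged 68.7 FPKM with lefamulin and M5, 61.4 with retapamulin and M5, 87.1 with M5 and 84.9 in untreated cells, and FARSB averaged 4.31 FPKM with lefamulin and M5, 4.14 with retapamulin and M5, 8.82 with M5 and 11.6 in untreated cells.

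VARS1 (valine), LARS1 (leucine) and KARS1 (lysine) also fell with both compounds. VARS1 had 117, 107 and 111 CPM with lefamulin and M5, 102, 103 and 108 CPM with retapamulin and M5, 164, 155 and 156 CPM with M5, and 160, 169 and 156 CPM in untreated cells. It fell by 0.50 with lefamulin (SE 0.04, edgeR adjusted p = 1.01e-10) and 0.60 with retapamulin (SE 0.04, adjusted p = 2.73e-12), with M5 and untreated libraries overlapping. LARS1 fell by 0.39 with lefamulin (SE 0.04, adjusted p = 1.01e-08) and 0.31 with retapamulin (SE 0.04, adjusted p = 2.88e-07), and KARS1 by 0.24 with lefamulin (SE 0.03, adjusted p = 1.77e-07) and 0.35 with retapamulin (SE 0.03, adjusted p = 2.02e-10). NARS1 (asparagine) and RARS1 (arginine) fell with lefamulin by 0.15 (adjusted p = 0.000438) and 0.10 (adjusted p = 0.0324). The RARS1 call was lost without M5 replicate 1 (adjusted p = 0.0532), M5 replicate 3 (0.0821), lefamulin replicate 1 (0.0510) or lefamulin replicate 3 (0.120). HARS1 (histidine) and YARS1 (tyrosine) passed the test with neither compound. Means of HARS1 were 87.3 CPM with lefamulin and M5, 89.5 with retapamulin and M5 and 91.7 with M5, and those of YARS1 were 133 CPM with lefamulin and M5, 137 with retapamulin and M5 and 136 with M5.

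The order of the synthetases by level per length shifted with treatment. KARS1 led with M5 at 148 ± 1.96 FPKM and TARS1 followed at 142 ± 1.21 FPKM (SD, n = 3 each). With lefamulin and M5, TARS1 led at 150 ± 3.45 FPKM before KARS1 at 121 ± 3.49 FPKM and GARS1 at 106 ± 2.25 FPKM. FARSB was the lowest in every group. The FPKM values rest on gene lengths set by the authors, such as 9202 bases for FARSB and 7716 bases for ATF4, and the order would change with other lengths.

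Mitochondria charge their own tRNAs with a largely, but not wholly, separate set of enzymes. Of 21 genes for mitochondrial tRNA charging, 1 rose and 15 fell with lefamulin, and 2 rose and 19 fell with retapamulin, with medians of -0.48 with lefamulin and -0.59 with retapamulin. Over all genes tested 34.3% fell with lefamulin and 38% with retapamulin. MARS2, for mitochondrial methionine, fell most, by 1.19 with lefamulin (SE 0.07) and 1.30 with retapamulin (SE 0.07), while RARS2 rose with lefamulin by 0.28 and CARS2 rose with retapamulin by 0.43. AIMP2, a scaffold protein of the cytosolic multi-synthetase complex, fell by 0.85 with lefamulin (SE 0.04) and 0.89 with retapamulin (SE 0.04). No test compares the mitochondrial list with the cytosolic genes.

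**Figure D4:**
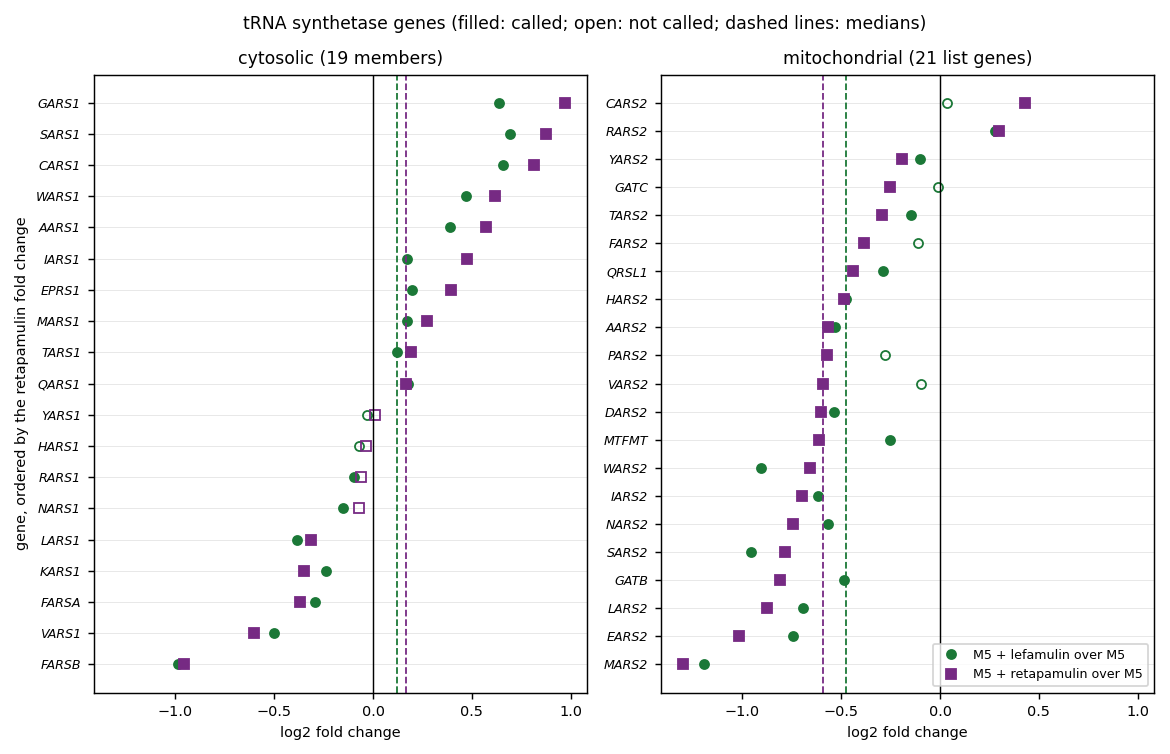
Log2 fold change over M5 of the 19 cytosolic synthetase genes (left) and of 21 genes for mitochondrial tRNA charging (right), with lefamulin (circles) and retapamulin (squares); filled symbols passed edgeR's test and dashed lines are the medians. The cytosolic genes spread to both sides of 0, from FARSB near -1 to GARS1 near 1, and the mitochondrial ones lie mostly left of it, with medians of -0.48 for lefamulin and -0.59 for retapamulin.

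Lefamulin and retapamulin were given with the same M5 treatment, but at doses that the labels do not give, so whether the doses matched is unknown. Compared with each other, 3 of the 43 genes were higher with lefamulin, 24 were lower and 16 did not pass, where 40% of all genes passed, 18.8% upward and 21.2% downward. The median difference of the 43 genes was -0.15, and -0.06 on library totals alone, and that of all genes 0.01. With RLE size factors 2 were higher and 29 lower, and on library totals alone 9 were higher and 17 lower, where the median of all genes was 0.10. The share of upward calls over all called genes was 47.0% with TMM, 36.8% with RLE and 72.8% on library totals. None of the 43 differed by as much as 2-fold, where 2.51% of all genes were at least 2-fold higher and 0.739% at least 2-fold lower with lefamulin, and 2 of them, DDIT4 and PPP1R15A, differed by more than 1.2-fold in edgeR's test against that minimum.

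The stress genes separated the compounds under each of these scalings. The differences of lefamulin minus retapamulin on the log2 scale were -0.45 for PPP1R15A (SE 0.03, edgeR adjusted p = 3.03e-11), -0.42 for DDIT4 (SE 0.05, adjusted p = 4.91e-07), -0.41 for CHAC1 (SE 0.08, adjusted p = 0.000299), -0.36 for SESN2 (SE 0.06, adjusted p = 6.95e-05) and -0.32 for TRIB3 (SE 0.04, adjusted p = 1.65e-06). In each of these 5 genes all 3 lefamulin libraries lay below all 3 retapamulin libraries. The share of all genes that separate in this way was not computed, while 40% of all genes passed the test between the compounds. ATF4 differed by -0.20 (SE 0.03, adjusted p = 9.54e-06), GARS1 by -0.33 (SE 0.03, adjusted p = 3.82e-08), IARS1 by -0.31 (SE 0.03, adjusted p = 1.34e-07), XPOT by -0.32 (SE 0.03, adjusted p = 1.01e-07) and PSAT1 by -0.30 (SE 0.04, adjusted p = 4.76e-07). DDIT3 differed by -0.23 (SE 0.06, adjusted p = 0.00211), and on library totals by -0.15 (adjusted p = 0.0513).

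The 3 genes that were higher with lefamulin were ATF5 by 0.22 (SE 0.05, edgeR adjusted p = 0.00164), PSPH by 0.23 (SE 0.04, adjusted p = 0.000101) and KARS1 by 0.11 (SE 0.03, adjusted p = 0.00548). With RLE size factors the KARS1 difference was 0.07 (adjusted p = 0.0506). Several genes that moved strongly with both compounds did not differ detectably between them. The 95% interval of the log2 difference was -0.07 to 0.05 for SLC7A5, -0.13 to 0.07 for FARSB, -0.06 to 0.06 for SHMT2, -0.03 to 0.31 for CTH and -0.68 to 0.22 for ASNS. On library totals alone SLC7A5, SHMT2 and CTH were higher with lefamulin, by 0.08 (adjusted p = 0.0147), 0.09 (adjusted p = 0.0098) and 0.23 (adjusted p = 0.024). MARS1, lower by 0.10 (SE 0.03, adjusted p = 0.0114), lost its call without lefamulin replicate 2 (adjusted p = 0.0773) or retapamulin replicate 3 (0.0565).

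**Figure D5:**
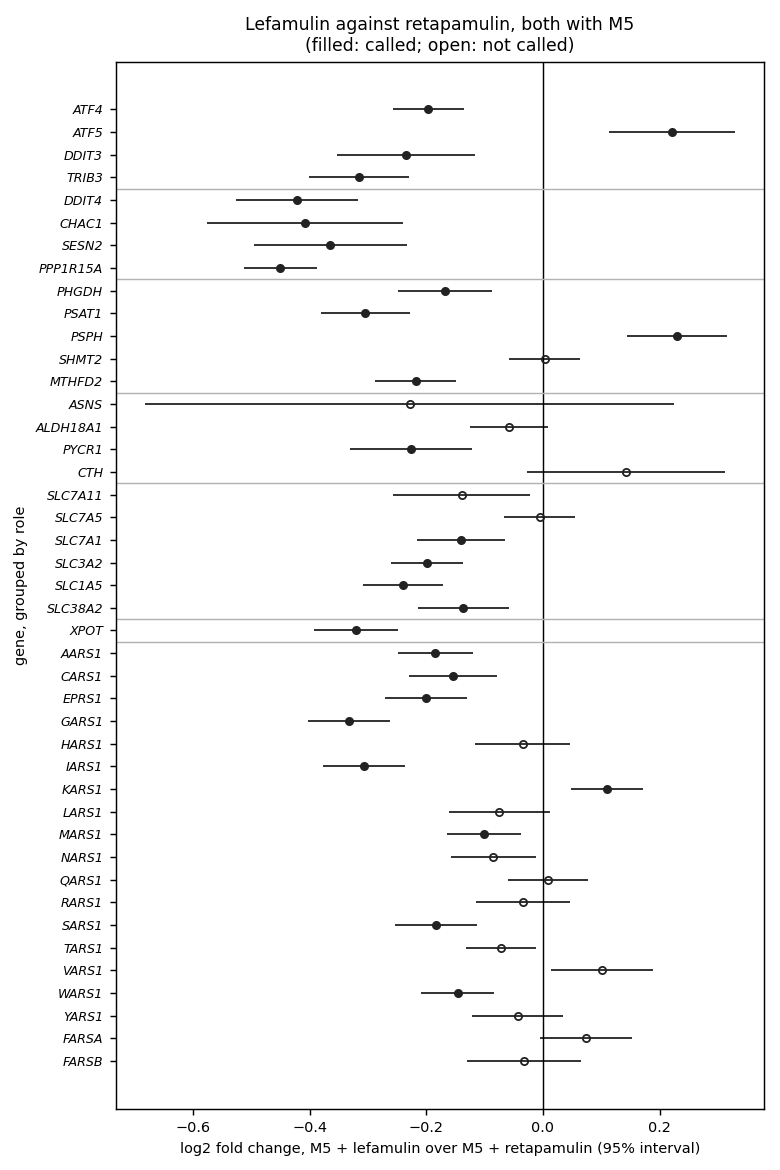
Log2 difference of lefamulin with M5 minus retapamulin with M5 for the 43 tested genes, with its 95% interval; filled points passed edgeR's test at an adjusted p under 0.05. The 4 stress effectors lie between -0.45 and -0.36, and ATF5, PSPH and KARS1 are the filled points right of 0.

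Set against untreated cells, lefamulin with M5 raised 26 of the 43 genes and lowered 13, where 74% of all genes passed, 36.9% upward and 37.1% downward. Retapamulin with M5 raised 28 and lowered 11, where 78.5% of all genes passed, 37.6% upward and 40.9% downward. The comparisons with M5 and with untreated cells share the compound libraries, so these counts do not add independent evidence. PPP1R15A was 6.58-fold above untreated cells with lefamulin and M5 (log2 2.72, SE 0.03, edgeR adjusted p = 2.22e-27) and 8.99-fold with retapamulin and M5 (log2 3.17, SE 0.03, adjusted p = 1.07e-28). DDIT4 was 5.26-fold above untreated cells with lefamulin and M5 and 7.04-fold with retapamulin and M5, and ATF4 was 2.14-fold above them with lefamulin and M5 and 2.46-fold with retapamulin and M5. SLC7A5 reached 0.273 of its untreated level with lefamulin and M5 (log2 -1.87, SE 0.03, adjusted p = 3.24e-25) and 0.274 with retapamulin and M5 (log2 -1.87, SE 0.03, adjusted p = 2.98e-25).

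Genes that surround the 43 in the pathway were read from wider lists. Their counts stand against 67.9% of all genes called with lefamulin, 72.1% with retapamulin and 55.2% with M5, and no list was tested against the rest. Of 21 tested further ATF4 targets and bZIP partners, 11 rose and 2 fell with lefamulin, 12 rose and 4 fell with retapamulin, and 17 rose and 2 fell with M5. KLHL24, an ubiquitin ligase adaptor, rose most with the compounds, by 2.19 with lefamulin (SE 0.05) and 2.17 with retapamulin (SE 0.05). CEBPB, a bZIP partner, rose most with M5, by 2.21 (SE 0.05). Of 9 genes for eIF2 kinases, their cofactors and a phosphatase subunit, 4 rose and 4 fell with lefamulin, and 3 rose and 3 fell with retapamulin. EIF2AK3 (PERK), the kinase of endoplasmic reticulum stress, had the largest rise, by 1.58 with lefamulin (SE 0.07) and 1.81 with retapamulin (SE 0.07), to 74.9 CPM with lefamulin and M5 and 88.1 CPM with retapamulin and M5, against 25.1 CPM with M5 and 16.4 CPM in untreated cells. IMPACT, an inhibitor of the amino acid sensing kinase GCN2, had the largest fall, by 0.79 with lefamulin (SE 0.07) and 1.35 with retapamulin (SE 0.08). Of 9 genes listed for eIF2 and eIF2B, 1 rose and 6 fell with lefamulin, and 2 rose and 5 fell with retapamulin. That list includes EIF2A, a separate initiation factor that is not a subunit of either.

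Of 6 genes of the mitochondrial stress relay through OMA1 and DELE1, 1 rose and 3 fell with each compound, with medians of -0.22 with lefamulin and -0.28 with retapamulin. PHB2, a prohibitin of the inner membrane, had the largest fall, by 0.66 with lefamulin and 0.61 with retapamulin. OMA1, the inner membrane protease that starts the relay, fell by 1.07 (SE 0.13) with M5 alone. Of 22 tested genes of amino acid sensing to mTORC1, 10 rose and 6 fell with lefamulin, and 8 rose and 6 fell with retapamulin. RRAGC, a Rag GTPase, had the largest rise with each compound, by 1.41 (SE 0.05) with lefamulin and 1.81 (SE 0.05) with retapamulin. Of 16 tested further folate, serine and glycine enzymes, 3 rose and 9 fell with lefamulin, and 3 rose and 10 fell with retapamulin. TYMS, which makes thymidylate, had the largest fall with lefamulin, by 0.99 (SE 0.04).

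Of 16 tested further amino acid transporters, 6 rose and 7 fell with lefamulin, 7 rose and 6 fell with retapamulin, and 10 rose and 4 fell with M5. SLC6A14, a broad amino acid importer, stood at 103 CPM with M5 and 0.348 CPM in untreated cells, a log2 fold change of 8.19 (SE 0.10). SLC7A8 (LAT2), which also pairs with SLC3A2, reached 4.86 CPM with lefamulin and M5 and 3.17 CPM with retapamulin and M5, against 0.108 CPM with M5. SLC7A2, an arginine importer, fell to 1.04 CPM with lefamulin and M5 and 0.501 CPM with retapamulin and M5, against 6.34 CPM with M5. Of 14 tested genes for glutamine, proline and sulfur amino acid metabolism, 5 rose and 7 fell with lefamulin, and 4 rose and 9 fell with retapamulin. OAT, which links ornithine to proline, had the largest rise there, by 0.98 (SE 0.03) with lefamulin and 0.67 (SE 0.03) with retapamulin. PRODH, which breaks down proline, had the largest fall with retapamulin (edgeR adjusted p = 0.00153). It had 18 counts over the lefamulin and M5 libraries, 2 over the retapamulin and M5 libraries, 31 over the M5 libraries and 147 over the untreated ones, so its fold is poorly fixed. AHCY had the largest fall with lefamulin, by 0.77.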

How the data were processed

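RNA-seq libraries of HaCaT cells were deposited as gene counts and FPKM, 3 for each of 4 groups. Reads were aligned with HISAT2 and counted with HTSeq, per the submitters' processing notes; versions, genome build and strand use stand as "not given in the sources used here". Deposited counts are whole numbers, not normalized. The deposited FPKM equal count / (gene length x column total) for all 20422 genes checked, within 0.001. The labels' extraction text names mouse epidermis, which does not match the cell line.

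Counts were tested with edgeR 4.0.16 (R 4.3.3): filterByExpr, TMM, 1 mean per group over 12 libraries, quasi-likelihood test, Benjamini-Hochberg adjustment over 14207 genes, adjusted p under 0.05. SE is the log2 fold change divided by the square root of F. The steps were tested on simulated data. Alternatives were RLE factors, library totals, no filter, at least 10 counts, DESeq2 1.42.0, limma 3.58.1 on log2 FPKM + 1 or + 0.1, fits of 2 groups, a replicate block, a 1.2-fold minimum and leaving out each library. Replicate pairs differed by more than sampling noise. Per-library values were printed for regulators, stress genes, ASNS and PSAT1, and, per comparison and role, for up to 2 called genes with the largest rise and up to 2 with the largest fall. From the wider lists only called genes with the largest rise or fall were named, and a few of these are not reported here. CZ1P-ASNS, NUP62 and IL4I1 were named after their values were seen. Members and lists were chosen with earlier results of these data known. Intervals of log2 fold changes include the fitted spread between libraries, and the limit of 3 counts covers counting error only.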

Additional observations from a re-analysis of the deposited data

How the results depend on the processing

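Single-gene results were followed for the tested regulators and stress genes, ASNS and PSAT1 in every comparison. Per comparison and role, up to 2 called genes with the largest rise and up to 2 with the largest fall were added. So was every called gene where compounds were compared with M5 or with each other, and SHMT2, CTH, SLC7A5 and FARSB between compounds. Other genes were not followed singly. Of these results over all alternatives, 3999 kept their direction and side of the threshold. A call was lost in 131 and gained in 12, and 27 changed sign. On library totals alone, and in limma on FPKM, which has the same scaling, the genes risen with M5 numbered 15, those fallen with retapamulin and M5 against untreated cells 17, and those higher with lefamulin than with retapamulin 9 (8 in FPKM without the filter, 5 in the fit of 2 groups). With a 1.2-fold minimum, M5 against untreated cells left 16 of the 43 genes called (10 risen, 6 fallen) and 3631 genes in all, lefamulin against M5 left 7 fallen and 6044 genes in all, and lefamulin against retapamulin left 2 called, 2 lower and 0 higher, and 1189 in all. Against untreated cells it left 25 called and 7 fallen with lefamulin and 7 fallen with retapamulin.

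Among the results followed, the called values that changed sign were XPOT with M5 (0.12) and PSAT1 between lefamulin with M5 and untreated cells (0.15). The other followed values that changed sign were not called. Genes not followed were not checked singly for a change of sign. With M5, XPOT was -0.00091 on library totals and -0.00037 in limma on FPKM, and ASNS ranged from -0.0055 (without untreated replicate 2) to 0.32 over left-out libraries. PSAT1 was -0.011 on totals and in limma on FPKM. For lefamulin minus retapamulin, SLC7A5 was 0.084 on totals, 0.083 in limma on FPKM and 0.0050 in the fit of 2 groups, and ranged from -0.035 to 0.018 over left-out libraries. FARSB was 0.057 on totals and 0.046, with + 0.1 0.055, in limma, and ranged from -0.067 to 0.0080. SHMT2 was -0.032 with RLE and DESeq2 and -0.0037 without the filter, and ranged from -0.013 to 0.020. The cause was not tested. ALDH18A1 between retapamulin with M5 and untreated cells (edgeR adjusted p = 0.044) lost its call with RLE, with DESeq2, without the filter, in the fit of 2 groups, with the 1.2-fold minimum and without 10 of the 12 libraries.

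Leaving out each library left 35 to 37 of the 43 genes called with M5 and with lefamulin over M5, 37 to 38 with retapamulin over M5 and 27 to 31 between the compounds. Correlations of same-numbered libraries ran from -0.14 to 0.18. For M5 and untreated libraries they were 0.13 for replicate 2 and 0.18 for replicate 3 but -0.036 for replicate 1, and in no comparison were all 3 over 0.1, so the numbers were not taken to pair the samples. The replicate block ended 1 named call, that of ALDH18A1 (adjusted p = 0.0508). The few counts of ASNS, NUPR1 and CBS limit what can be said of them.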
